A study of Sus scrofa with 12 samples.

Results

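Citrulline, arginine and proline metabolism was described here through 10 genes of intestinal citrulline synthesis and arginine use, namely NAGS, CPS1, OTC, ASS1, ASL, ARG1, ARG2, OAT, ALDH18A1 and PRODH. They were picked by gene symbol and not by a cut on their values, though with earlier results of these data known. The array's annotation gave a probe set to 8 of the 10, out of 13538 genes with a symbol. They had 20 probe sets among 47845 in all, and none was listed for ASL or PRODH. RNA came from the ileal mucosa, the lining of the last stretch of the small intestine, of 12 pigs that were 140 days old. The groups were 6 pigs of high and 6 pigs of low feed efficiency (FE), the ability to turn feed into growth, with 3 males and 3 females in each. Every array belonged to a pig with its own identifier. How feed efficiency was scored, and the breed and diet of the pigs, are not stated in the labels.

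The small intestine is the main source of the citrulline in blood, and its enterocytes make it inside their mitochondria. ALDH18A1 turns glutamate into pyrroline-5-carboxylate, PRODH makes the same compound from proline, and OAT interconverts that compound and ornithine. CPS1 makes carbamoyl phosphate from ammonia and needs N-acetylglutamate, the product of NAGS, as its activator. OTC joins carbamoyl phosphate to ornithine to give citrulline, which other organs, mainly the kidney, turn into arginine through ASS1 and ASL. Arginases split arginine into ornithine and urea, with ARG1 the cytosolic form known from the liver and ARG2 the mitochondrial form found in many tissues.

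The deposited values were log2 intensities, and each gene was read from its probe set with the highest mean over the 12 arrays. Probe sets with a mean log2 value under 2.67, the dimmest 30%, were left out of the tests. This kept 33405 probe sets, among them 15 of 6 members (NAGS, CPS1, OTC, OAT, ALDH18A1 and ARG2). Array medians lay between 4.2 and 4.31. The array of high FE pig 1, a male, stood apart with a median correlation of 0.899 with the other arrays, which had 0.93 to 0.962. In the tissue labelled ileal mucosa, all 13 absorptive enterocyte markers with a probe set lay above the filter, with mean log2 values of 7.25 to 12.25. So did 10 of 11 general epithelial markers, whose means ran from 1.53 to 11.58 with a median of 7.97. All 7 smooth muscle markers with a probe set were above it too, with means of 3.79 to 11.75 and a median of 9.69, so the samples were not of epithelium alone. Of 5 genes listed as liver markers, 3 lay above the filter, with means of 1.7 to 5.59 and a median of 2.69 over the 5. These 3 were SERPINA1 at 5.59, TTR at 4.51 and ALB at 2.69, the last close to the filter of 2.67.

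The 5 enzymes that make citrulline or supply its ornithine and the mitochondrial arginase were all measured above the filter. None of these 6 members passed the limma test between high and low feed efficiency. All 6 had a lower mean in high FE pigs, by 0.26 to 0.60 on the log2 scale, as did 49.4% of all probe sets tested. In all 6 the groups overlapped. In the sex comparison none passed either, with NAGS showing the lowest unadjusted p of the 6. Across pigs, CPS1, OTC and OAT varied along with markers of absorptive enterocytes, and NAGS, ALDH18A1 and OTC with general epithelial markers, also without the most extreme pigs. With the enterocyte markers ALDH18A1 had a Pearson's r of 0.87 over all pigs. Without the 2 pigs farthest from the median score that r was 0.53 and did not pass (permutation, adjusted p = 0.168). After group and sex means were removed, with all pigs kept, ALDH18A1 had r of 0.98 with the enterocyte markers and 0.96 with the epithelial ones. ARG2 had no correlation past the threshold with either.

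In the step that sets up carbamoyl phosphate, NAGS had a lowest, median and highest log2 value of 4.50, 5.93 and 6.49 in high FE pigs, against 5.43, 6.04 and 6.92 in low FE pigs. Both of the lowest NAGS values, 4.50 and 5.02, belonged to high FE males, and low FE pig 4, a female, had the highest. CPS1 ran from 6.54 through a median of 8.30 to 9.78 in high FE pigs, against 8.35, 8.80 and 9.67 in low FE pigs. High FE pigs thus held both the lowest and the highest CPS1 value, the lowest in pig 1 and the highest in pig 3, both males. For OTC, which forms citrulline itself, the values were 5.55, 7.67 and 8.12 in high FE pigs, against 7.57, 7.83 and 8.46 in low FE pigs. The OTC value of 5.55 came from high FE pig 1, and the next lowest value of any pig was 7.42.

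In the supply of ornithine, OAT had values of 7.83, 9.70 and 10.45 in high FE pigs, against 9.56, 10.04 and 10.56 in low FE pigs. ALDH18A1 had 6.81, 8.33 and 8.90 in high FE pigs, against 8.10, 8.27 and 8.94 in low FE pigs, so that its median was slightly higher in the high FE group while its mean was lower. High FE pig 1 had the lowest value of all 12 pigs in NAGS, CPS1, OTC, OAT and ALDH18A1, and high FE pig 2 was next lowest in all but OTC.

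On the arginine side, ARG2 had values of 5.29, 5.89 and 6.20 in high FE pigs, against 5.99, 6.15 and 6.54 in low FE pigs. Only high FE pig 5, at 6.20, lay above the lowest low FE pig, and high FE pig 3 was the lowest of all. The ARG2 order of pigs was largely unlike that of the other 5. High FE pig 3 was highest in CPS1, and high FE pig 1, the lowest in the other 5, had an ARG2 value of 5.86 in the midst of its group. Low FE pig 4, however, was highest in ARG2 and also in NAGS, OTC and ALDH18A1. ASS1, which joins citrulline to aspartate, stayed below the filter with values of 2.00 to 2.44 in high FE pigs and 1.98 to 2.42 in low FE pigs. Both ARG1 probe sets were also below it, the brighter with 1.57 to 2.20 in high FE pigs and 1.76 to 2.37 in low FE pigs. The high minus low differences of -0.04 ± 0.11 in ASS1 and -0.25 ± 0.13 in ARG1 (SE, limma fit without the filter) therefore concern dim signals, and the other ARG1 probe set differed in the opposite direction, by 0.21.

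**Figure D1:**
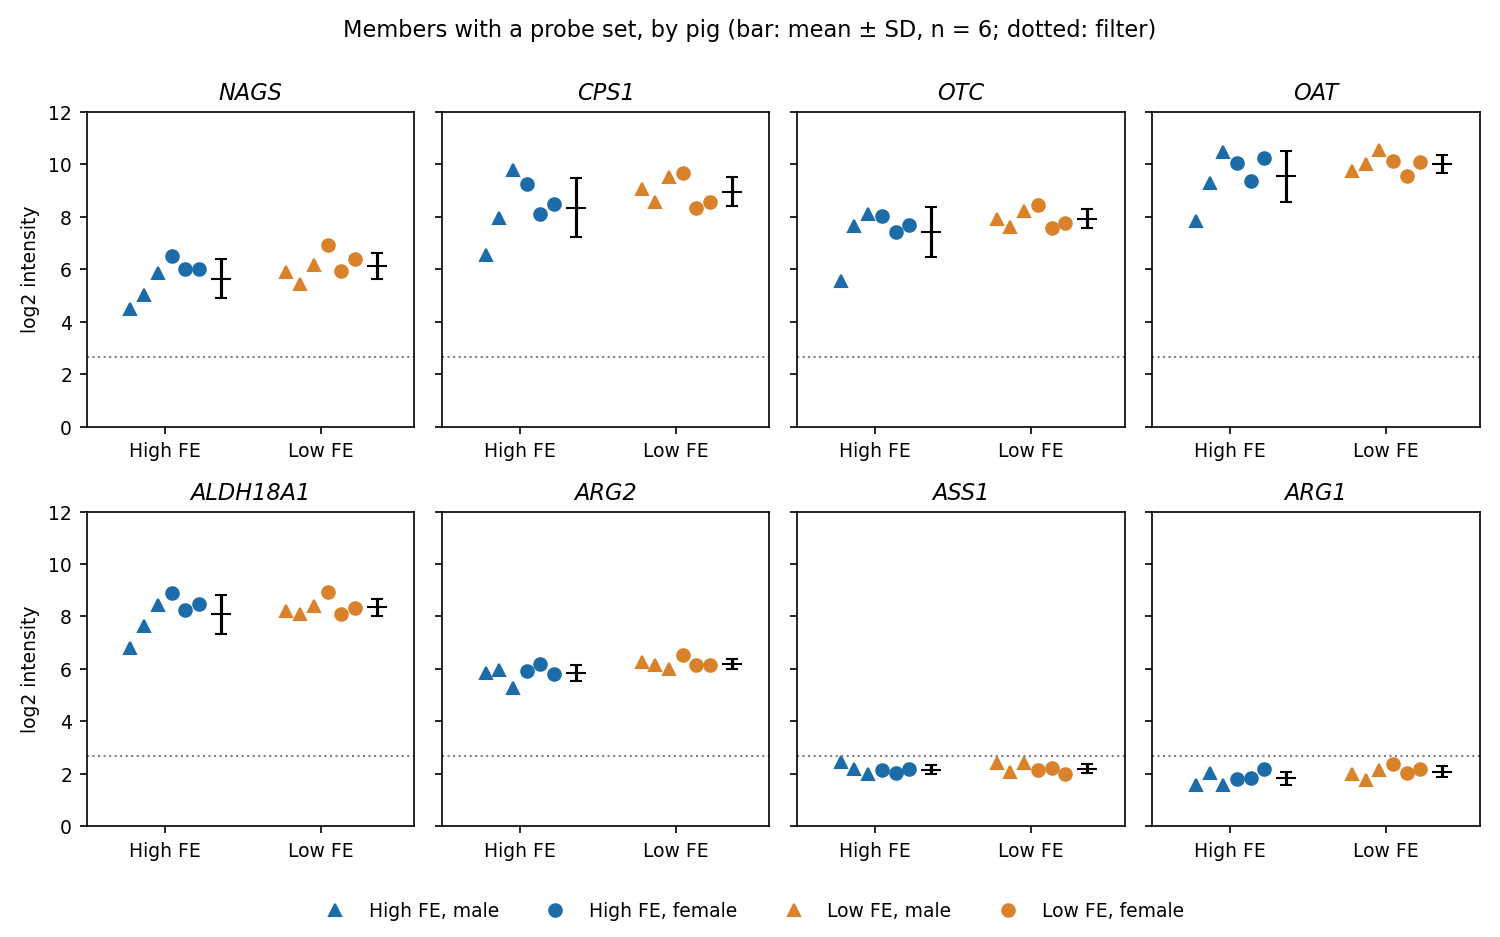
Log2 intensity of the 8 members with a probe set, 1 panel each, in 6 high FE pigs (blue) and 6 low FE pigs (orange), with triangles for males, circles for females, bars for mean ± SD and a dotted line at the filter of 2.67. High FE pig 1, the first triangle in each panel, is the lowest point in NAGS, CPS1, OTC, OAT and ALDH18A1, and ASS1 and ARG1 lie below the filter.

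The comparison of high with low feed efficiency asked whether the levels of these transcripts separate the groups. NAGS averaged 5.65 ± 0.74 in high FE pigs and 6.12 ± 0.50 in low FE pigs (SD, n = 6 each), a difference of -0.47 ± 0.25 (SE, limma adjusted p = 0.999). CPS1 averaged 8.35 ± 1.13 in high FE pigs and 8.95 ± 0.55 in low FE pigs, a difference of -0.60 ± 0.47 with a 95% interval from -1.62 to 0.42. The OTC means were 7.41 ± 0.95 in high FE pigs and 7.92 ± 0.36 in low FE pigs, which differed by -0.52 ± 0.37. In these 3 genes the spread among high FE pigs was wider than among low FE pigs, and no difference exceeded it.

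OAT averaged 9.54 ± 0.96 in high FE pigs and 10.02 ± 0.34 in low FE pigs, a difference of -0.48 ± 0.38. The smallest difference was that of ALDH18A1, with 8.08 ± 0.75 in high FE pigs and 8.34 ± 0.31 in low FE pigs, at -0.26 ± 0.26. In ARG2 the difference was -0.36 ± 0.14, from 5.84 ± 0.30 in high FE pigs and 6.20 ± 0.19 in low FE pigs, with a 95% interval from -0.67 to -0.05 and an unadjusted p of 0.0267. All 6 members had a limma adjusted p of 0.999 over the 33405 probe sets. So 0 of 6 were called, and the share called among all probe sets tested was 0.0% as well. At an unadjusted p under 0.05 ARG2 alone among the 6 passed, against 3.17% of all probe sets in either direction and 1.42% with lower values in high FE pigs. In none of the 6 were the groups free of overlap, which was so for 0.0928% of all probe sets. The median difference of the 6 was -0.48, against 0.00 over all probe sets tested. In bulk mucosa, fewer cells of a type and less RNA per cell cannot be told apart.

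The differences of 5 members were smaller without high FE pig 1. Without it the high minus low difference was -0.21 for CPS1, -0.14 for OTC, -0.13 for OAT, -0.04 for ALDH18A1 and -0.30 for NAGS. ARG2 instead stood at -0.39 without pig 1, and at its smallest, -0.26, without high FE pig 3. Among males alone the differences were -0.71 for NAGS, -0.95 for CPS1, -0.82 for OTC, -0.92 for OAT, -0.61 for ALDH18A1 and -0.42 for ARG2. Among females alone they were -0.23, -0.25, -0.21, -0.05, 0.09 and -0.30 in the same order of genes. The difference between the sexes in the feed efficiency difference was tested itself and did not pass in any member, with limma adjusted p of 1.0 for all 6. In that test 0 of 6 members had an unadjusted p under 0.05, against 2.76% of all probe sets, and 0.0% were called after adjustment. It ranged from -0.87 ± 0.74 for OAT to -0.12 ± 0.30 for ARG2 (males minus females, SE).

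Probe sets of the same gene were compared next. OTC had 4, of which the 2 next brightest followed the brightest with Pearson's r of 0.99 each over 12 pigs and gave differences of -0.69 ± 0.46 and -0.64 ± 0.50 (high minus low). Its dimmest, with a mean of 3.01, correlated at 0.59 and differed by 0.08 ± 0.25. Both ALDH18A1 probe sets moved together at r = 0.98, the second with a difference of -0.31 ± 0.23. Over all probe sets tested, 49.4% had a lower mean in high FE pigs and 3.17% an unadjusted p under 0.05. Of the 15 member probe sets tested, 14 had a lower mean in high FE pigs and 4 had an unadjusted p under 0.05, all 4 of them of ARG2. Since these 4 read the same gene in the same pigs, they are not separate evidence.

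ARG2 had 8 probe sets, 6 of them above the filter, and all 6 had lower means in high FE pigs. The second brightest ranged from 4.83 to 5.52 in high FE pigs and from 5.40 to 5.96 in low FE pigs, with a difference of -0.38 ± 0.13 (unadjusted p 0.0124). Sets 3 and 5 in order of brightness differed by -0.32 ± 0.13 and -0.75 ± 0.32, with unadjusted p of 0.0287 and 0.0394. Sets 4 and 6 differed by -0.43 ± 0.25 and -0.43 ± 0.30, with unadjusted p of 0.104 and 0.183. None passed after adjustment (limma adjusted p = 0.999 for each). Agreement with the brightest probe set was uneven, with r of 0.85, 0.58, 0.48, 0.76 and 0.04 for sets 2 to 6. The 2 probe sets below the filter differed by -0.12 ± 0.22 and 0.34 ± 0.24.

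**Figure D2:**
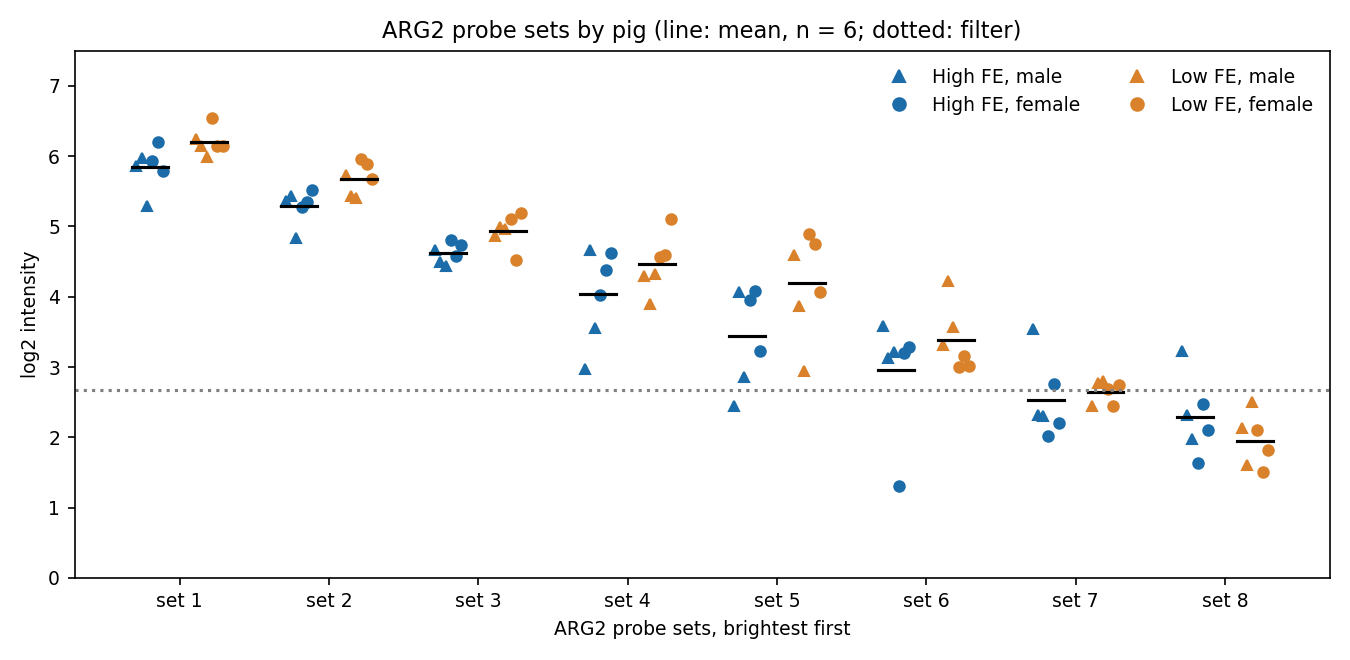
Log2 intensity of the 8 ARG2 probe sets from the brightest (set 1) to the dimmest (set 8) in 6 high FE pigs (blue) and 6 low FE pigs (orange), with group means as black lines and the filter of 2.67 dotted. The high FE mean lies lower in sets 1 to 7, the groups overlap in every set, and sets 7 and 8 are below the filter.

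Sex was the other label in the design, with 6 males and 6 females. NAGS ran from 4.50 through a median of 5.64 to 6.16 in males, against 5.93, 6.19 and 6.92 in females. Only low FE pig 3, at 6.16, reached the range of the females. NAGS averaged 5.48 ± 0.63 in males, against 6.29 ± 0.38 in females (SD, n = 6 per sex). The male minus female difference was -0.81 ± 0.25, with an unadjusted p of 0.00706 and a limma adjusted p of 0.134. ALDH18A1 had 6.81, 8.16 and 8.42 in males, against 8.10, 8.41 and 8.94 in females, a difference of -0.57 ± 0.26 (limma adjusted p = 0.267). It was -0.35 without high FE pig 1. The other members differed by less, with CPS1 at -0.17 ± 0.47, OTC at -0.32 ± 0.37, OAT at -0.25 ± 0.38 and ARG2 at -0.21 ± 0.14 (limma adjusted p from 0.464 to 0.89).

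After adjustment 0 of 6 members were called by sex, against 0.0329% of all probe sets. At an unadjusted p under 0.05, NAGS alone of the 6 passed, beside 19.0% of all probe sets, 9.17% with lower values in males. The sexes overlapped in all 6 members, and 2.18% of all probe sets had no overlap between them. The NAGS difference was -1.04 among high FE pigs alone and -0.57 among low FE pigs alone. It stayed between -0.94 and -0.64 when each pig was left out in turn. Pig identifiers fell into the ranges 301 to 310, with 6 males and 2 females, and 317 to 324, with 4 females. Within 301 to 310 the NAGS difference was -1.22 (limma adjusted p = 0.236), while the other range holds no male. That difference rests on 2 females, at 6.49 and 6.92, the highest NAGS values of all pigs. The 4 females of 317 to 324 had NAGS values of 5.93 to 6.37. Within 301 to 310 ALDH18A1 stood at -0.99, CPS1 at -0.89, OTC at -0.74, OAT at -0.44 and ARG2 at -0.32. Of the 15 member probe sets, 14 had a lower mean in males, beside 51.0% of all probe sets tested. An unadjusted p under 0.05 was found in 4 of the 15, beside the same 19.0%. These 4 were that of NAGS, the second of ALDH18A1, and sets 4 and 6 of ARG2, which went opposite ways at -0.60 ± 0.25 and 0.68 ± 0.30. For CPS1, OTC and OAT, leaving out high FE pig 1 turned the sign, to 0.22, 0.06 and 0.10.

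**Figure D3:**
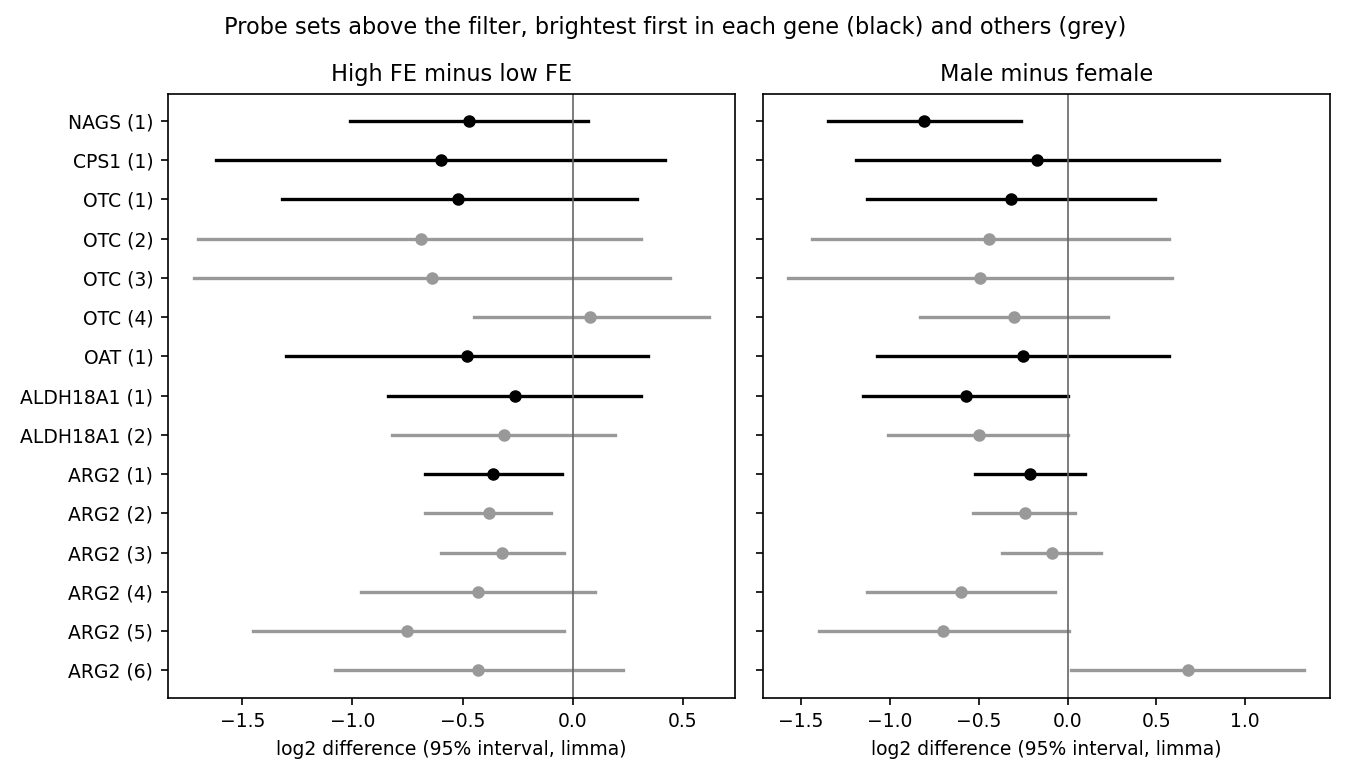
High minus low FE (left) and male minus female (right) log2 differences with 95% intervals from limma for the 15 member probe sets above the filter, the brightest of each gene in black and the others in grey, numbered by brightness. On the left 14 of 15 points lie below 0, and the intervals that leave out 0 are those of 4 ARG2 probe sets.

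The 5 enzymes of citrulline synthesis and ornithine supply varied together across the 12 pigs. As a description, Pearson's r over their 10 pairs ran from 0.74 to 0.94 with a median of 0.88, and Spearman's rho had a median of 0.79. The highest r, 0.94, joined NAGS and ALDH18A1, and CPS1 with OTC had 0.93. These points share arrays, and high FE pig 1 was the lowest in every one of the 5. Without that pig the r of the pairs ran from 0.45 to 0.93 with a median of 0.69, and CPS1 with OTC kept 0.93. After group and sex means were removed they ran from 0.81 to 0.97. ARG2 had r of only -0.06 to 0.36 with the 5.

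**Figure D4:**
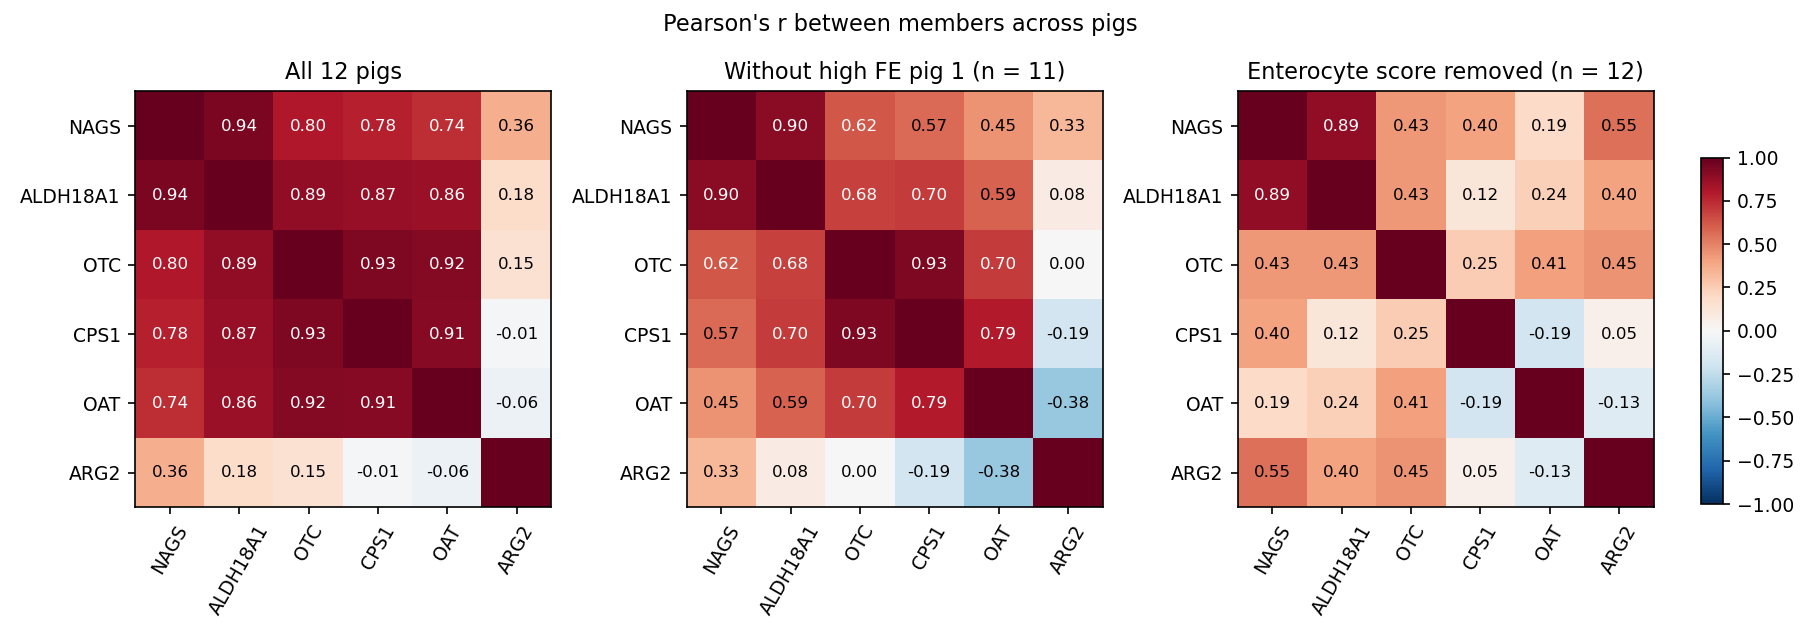
Pearson's r between the 6 members above the filter over all 12 pigs (left), without high FE pig 1 (middle) and after the absorptive enterocyte marker score was removed by regression (right). The 5 enzymes of citrulline synthesis and ornithine supply have r of 0.74 to 0.94 on the left and -0.19 to 0.89 on the right, where NAGS with ALDH18A1 keeps 0.89.

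The spread across pigs differed between members. The SD of CPS1 over the 12 pigs was 0.90, larger than in 96.5% of the probe sets tested, and that of OTC and OAT was 0.73 each. The SD of NAGS was 0.65 and of ALDH18A1 0.56, while ARG2 at 0.31 lay near the median of 0.32 over all probe sets. Without high FE pig 1 the SD of CPS1 was 0.64, still above 91.3% of probe sets, whereas that of OTC dropped to 0.32 and lay above 55.2%.

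Since enterocytes make citrulline, each member above the filter was set beside a score of 13 measured absorptive enterocyte markers, such as DPP4 and SI. Which cells held these transcripts was not measured. For each pig, the score averages how far the log2 values of the markers lie from their own means over all pigs. CPS1 followed it most closely, with r = 0.98 and rho = 0.99 over 12 pigs (permutation p = 1e-05 for both, the smallest that 100000 resamples can give, 9e-05 for r after adjustment over 18 relations). Without high FE pig 1 that r was 0.97, and without the 2 pigs farthest from the median score it was 0.96. OTC and OAT had r of 0.93 each, with rho of 0.90 and 0.83, and r of 0.88 and 0.76 without the 2 farthest pigs (permutation, adjusted p = 0.00387 and 0.0302).

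ALDH18A1 had r = 0.87 and rho = 0.77 with the enterocyte score (permutation, adjusted p = 0.00171 for r). This r was 0.68 without high FE pig 1 (permutation, adjusted p = 0.0473) and 0.53 without the 2 farthest pigs (permutation, adjusted p = 0.168). After group and sex means were removed, the r of ALDH18A1 over all pigs was 0.98. How far that value depends on the extreme pigs was not tested. For NAGS the r of 0.75 (rho 0.48) was 0.48 without high FE pig 1 and 0.23 without the 2 farthest pigs. ARG2 had r = -0.02 and rho = 0.03 (permutation, adjusted p = 0.953 for r). Among pigs 301 to 310 alone (n = 8) the r with this score was 0.99 for CPS1, 0.94 for OTC, 0.98 for OAT, 0.92 for ALDH18A1, 0.85 for NAGS and 0.05 for ARG2. These pigs include high FE pig 1, and how far the values depend on that pig was not tested. The other identifier range holds 4 pigs, too few for a correlation.

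A second score, of 10 general epithelial markers such as EPCAM and KRT8, gave another order. ALDH18A1 and NAGS followed the second score with r of 0.97 and 0.92 (rho 0.92 and 0.89), and without the 2 farthest pigs with 0.91 and 0.89 (permutation, adjusted p = 0.00225 and 0.00387). OTC had 0.95, CPS1 0.90 and OAT 0.89, and without the 2 farthest pigs the r of these 3 was 0.83, 0.70 and 0.46, of which only that of OTC passed after adjustment (permutation, adjusted p = 0.0102). ARG2 had r = 0.20. A smooth muscle score of 7 markers had r of 0.42 to 0.62 with the 5 enzymes and -0.46 with ARG2, and only the r with CPS1 passed (permutation, adjusted p = 0.0477), though not without the 2 farthest pigs (permutation, adjusted p = 0.0736). Of the 18 relations, 11 had an adjusted p under 0.05 over all pigs, 8 without high FE pig 1 and 6 without the 2 farthest pigs. Beside all probe sets tested, 0.012% had an r with the enterocyte score at least as high as CPS1, 0.515% as OTC, 0.449% as OAT, 1.63% as ALDH18A1 and 5.37% as NAGS. With the epithelium score these shares were 0.228% for ALDH18A1, 0.566% for OTC, 1.37% for NAGS, 2.09% for CPS1 and 2.51% for OAT. Without high FE pig 1, 14.2% of probe sets were at or above NAGS with the enterocyte score and 10.7% at or above OAT with the epithelium score.

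**Figure D5:**
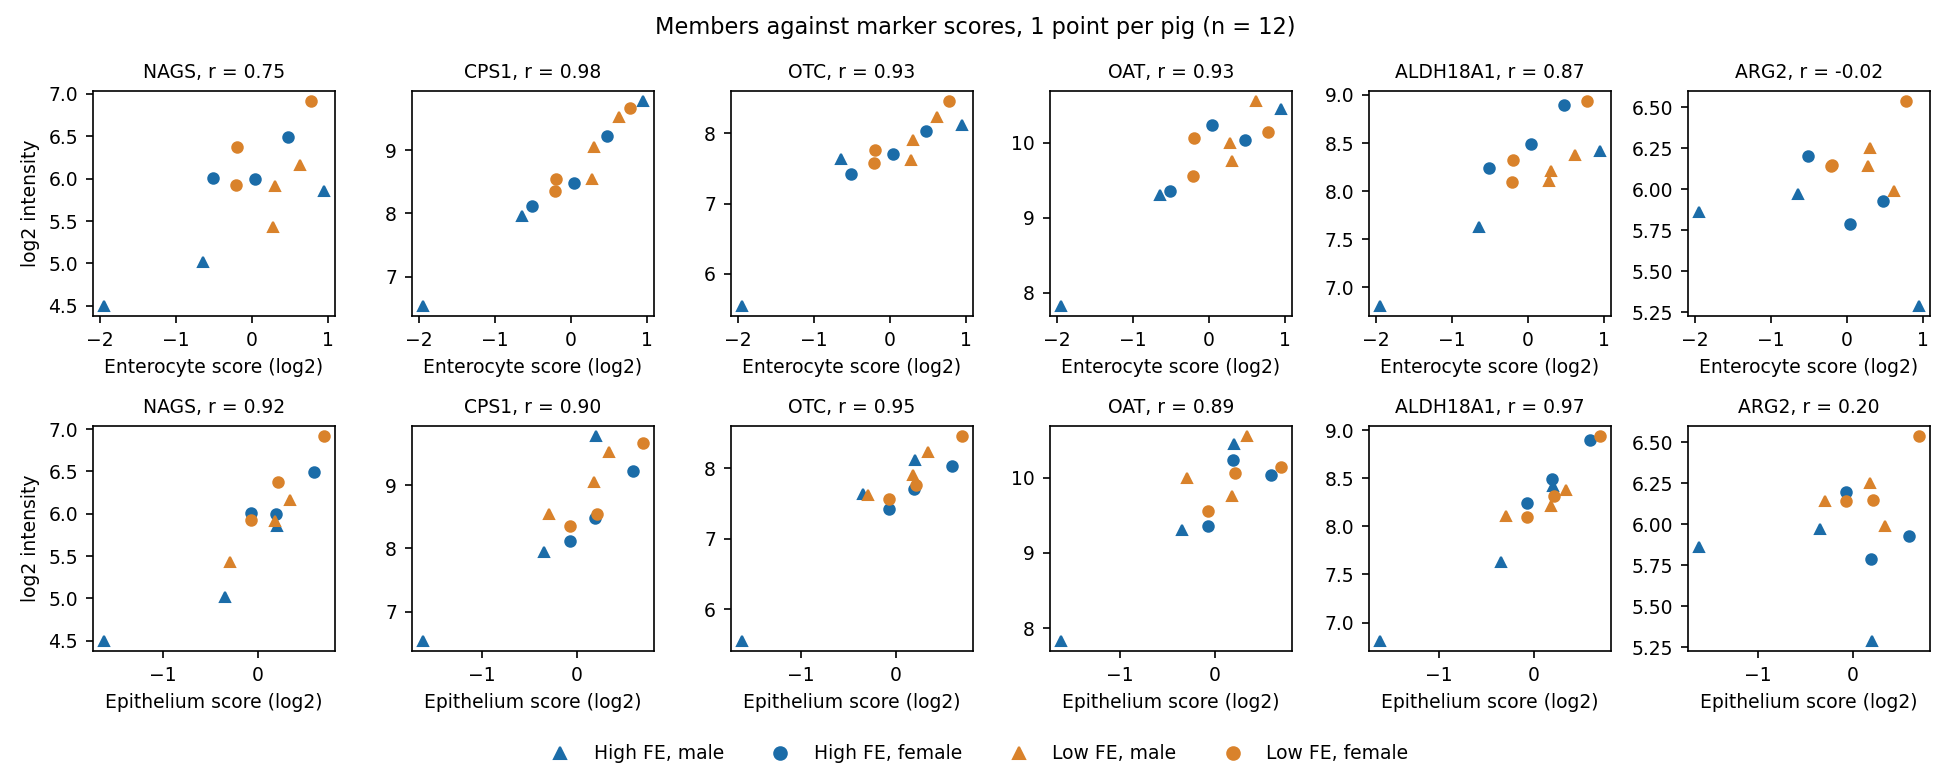
Log2 intensity of the 6 members above the filter against the absorptive enterocyte score (top) and the epithelium score (bottom), with 1 point for each of 6 high FE pigs (blue) and 6 low FE pigs (orange). CPS1 lies close to a line against the enterocyte score (r = 0.98), NAGS and ALDH18A1 lie closer to one against the epithelium score (r = 0.92 and 0.97), and ARG2 follows neither (r = -0.02 and 0.20).

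The enterocyte score itself ran from -1.95 to 0.95 in high FE pigs and from -0.21 to 0.78 in low FE pigs, with means of -0.27 ± 1.01 in high FE pigs and 0.27 ± 0.41 in low FE pigs (SD, n = 6 each, two-sided exact permutation p = 0.305). The epithelium score averaged -0.18 ± 0.77 in high FE pigs and 0.18 ± 0.34 in low FE pigs (two-sided exact permutation p = 0.295). Leaving out high FE pig 1 gave a high minus low difference of -0.20 in the enterocyte score, against -0.54 over all pigs, and of -0.06 in the epithelium score, against -0.35. Of 13 marker scores none had an exact permutation p under 0.05 for feed efficiency, and the smallest p the 400 arrangements allow is 0.005. With the enterocyte score as a term in the limma model, the high minus low difference was 0.01 for CPS1, -0.06 for OTC, -0.02 for OAT, 0.07 for ALDH18A1 and -0.19 for NAGS. For ARG2 it was -0.43 ± 0.15 (limma adjusted p = 0.999). The male minus female difference of NAGS with this term was -0.74 ± 0.13 (limma adjusted p = 0.0585). For ALDH18A1 it was -0.49 ± 0.10 (limma adjusted p = 0.061). By sex, 2554 of 33405 probe sets had a limma adjusted p under 0.1 in that fit. The epithelium score averaged -0.26 ± 0.72 in males and 0.26 ± 0.32 in females (two-sided exact permutation p = 0.125), and its part in the NAGS difference was not tested. For sex, 2 of the 13 scores had an exact permutation p under 0.05, goblet cells and hepatocytes with differences of -0.57 and -0.32 (male minus female), and none passed after adjustment (smallest adjusted p 0.13). The hepatocyte score held only 3 genes, with SERPINA1 at -0.85, TTR at -0.06 and ALB at -0.05, so it mostly reflected 1 gene. The goblet markers ran from -1.26 for TFF3 to 0.08 for MUC2.

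Over 11756 other genes with a symbol, those whose pattern across the 12 pigs was most like each member were found by Pearson's r, as a description. For CPS1 they were AK3, a mitochondrial adenylate kinase, at 0.986, CRYZ, a quinone reductase, at 0.981, and DPP4, the brush border dipeptidyl peptidase that is also in the enterocyte score, at 0.980. All 3 stayed within the 4 genes most like CPS1 without high FE pig 1. For OTC they were EPCAM, the epithelial adhesion protein, at 0.982, VDAC3, a channel of the outer mitochondrial membrane, at 0.977, and RAB27B, a vesicle traffic protein, at 0.973. The OTC list rested on high FE pig 1, since without that pig the 3 had r of 0.897, 0.860 and 0.836 and ranks 16, 61 and 108. SLC31A1, a copper importer, led for OAT at 0.973, before CYB5A, a cytochrome, at 0.969 and DSP, which encodes the junction protein desmoplakin, at 0.968.

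BCR, known for its fusion with ABL, led for ALDH18A1 at 0.990, followed by TMEM98 at 0.979 and SPINT1, an epithelial protease inhibitor, at 0.978. For NAGS the list was SEC24C, a coat protein of secretory vesicles, at 0.968, TMEM92 at 0.967 and PLA2G12B at 0.964. The ARG2 list held KCNA5, a potassium channel, at 0.934, STAT2, a transcription factor of interferon signalling, at 0.884 and PDIA4, a folding enzyme of the endoplasmic reticulum, at 0.872. Other genes were often more like a member than the other members were. For CPS1, OTC ranked 59 of 11756, OAT 156, ALDH18A1 309 and NAGS 741. For NAGS, ALDH18A1 ranked 44, but OTC 797, CPS1 923 and OAT 1186. With high FE pig 1 left out, ALDH18A1 ranked 62 and OAT 2612 for NAGS, and OTC ranked 17 for CPS1.

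Around the members, 58 other genes of the same metabolism were listed by role, and 48 of them lay above the filter. Between high and low feed efficiency 0 of 48 passed the limma test, 16 had a higher and 32 a lower mean in high FE pigs, and the median difference was -0.04. Over all probe sets 49.4% had a lower mean in high FE pigs, and the median difference was 0.00. At an unadjusted p under 0.05 there was 1 of 48, PAOX, an oxidase of acetylated polyamines, with a difference of 0.39 ± 0.16, where 1.75% of all probe sets had such a p with higher values in high FE pigs. The 2 genes of smallest p in each list are given next, each with a limma adjusted p of 0.999. The high minus low differences without high FE pig 1 were -0.32 for DDAH1, -0.14 for SLC3A1, 0.14 for OAZ2 and -0.09 for CDX2, against -0.54, -0.30, 0.26 and -0.25 over all pigs. When high FE pig 6 was left out, CAD stood at 0.13 and NOS2 at -0.30, against 0.25 and -0.55.

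Among 8 genes of glutamate and citrulline supply, CAD, which makes carbamoyl phosphate for pyrimidines in the cytosol, averaged 5.97 in high FE pigs and 5.72 in low FE pigs, and ALDH4A1, which oxidises pyrroline-5-carboxylate to glutamate, 5.82 in high FE pigs and 5.68 in low FE pigs. Among 13 carriers, SLC25A22, a mitochondrial glutamate carrier, averaged 3.57 in high FE pigs and 3.78 in low FE pigs. SLC3A1, the heavy subunit of the brush border carrier for cystine and basic amino acids, averaged 7.06 in high FE pigs and 7.36 in low FE pigs. These differences, of 0.13 to 0.30 in size, did not pass the test.

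Of the 11 genes of polyamines, creatine and agmatine, PAOX averaged 4.77 in high FE pigs and 4.39 in low FE pigs, and OAZ2, an inhibitor of ornithine decarboxylase, 6.12 in high FE pigs and 5.86 in low FE pigs. In the list of 7 genes of nitric oxide and methylarginines, DDAH1, which breaks down methylarginines, averaged 6.48 in high FE pigs and 7.03 in low FE pigs, a difference of -0.54 ± 0.26. NOS2, the inducible nitric oxide synthase, averaged 6.97 in high FE pigs and 7.52 in low FE pigs. Of 9 regulators, CEBPB averaged 5.11 in high FE pigs and 5.48 in low FE pigs, and CDX2, an intestinal homeobox factor that is also in the epithelium score, 7.75 in high FE pigs and 7.99 in low FE pigs. No regulator passed the test.

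By sex, 0 of the 48 genes passed, with 13 higher and 35 lower in males and a median difference of -0.18. Over all probe sets tested 51.0% were lower in males, and the median difference was -0.01. At an unadjusted p under 0.05 there were 15 of 48, beside the 19.0% among all probe sets. GLUL, the glutamine synthetase, averaged 8.30 in males and 9.15 in females, a difference of -0.84 ± 0.27 (limma adjusted p = 0.138). SLC36A1, a carrier of small neutral amino acids such as proline, averaged 6.52 in males and 6.97 in females (limma adjusted p = 0.125). PEPD, which frees proline from dipeptides, differed by -0.64 ± 0.24, and SLC3A1 by -0.48 ± 0.19. SRM, the spermidine synthase, differed by -0.46 ± 0.19 and GAMT, the last enzyme of creatine synthesis, by -0.31 ± 0.15. DDAH1 and DDAH2 differed by -0.59 ± 0.26 and -0.42 ± 0.19 and CEBPB by -0.74 ± 0.23, while NR3C1, the glucocorticoid receptor, was at 0.27 ± 0.10 (male minus female, limma adjusted p from 0.139 to 0.29 for these 7 and PEPD). Sex is tied in part to the identifier range, and within 301 to 310 the difference was -0.37 for CEBPB, -0.56 for GAMT, -1.05 for PEPD and -0.90 for DDAH1. Without high FE pig 1 it was -0.36 for DDAH1, -0.32 for SLC3A1 and -0.28 for DDAH2. SRM was at -0.30 without high FE pig 3, and without high FE pig 4 GAMT was at -0.20.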

How the data were processed

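Total RNA from 12 ileal mucosa samples was measured on 1-colour Affymetrix arrays, whose probe sets carry the name Snowball. The deposited table holds log2 values, a scale read from the values (0.3 to 14.24). The submitters' processing notes name GCOS 1.1.1. Background correction, probe set summary and normalization: not given in the sources used here. No further normalization was added, as the arrays had nearly equal medians. Feed efficiency, sex and age were taken from the labels.

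Genes were named through the platform annotation, with symbols updated through the gene table of Sscrofa11.1. The annotation gave 1 symbol to 26426 probe sets, several to 0 and none to 21419. Of the 47845 probe sets, 123 controls and the dimmest 30% (mean under 2.67) were left out, which left 33405. Models with terms for feed efficiency and sex were fitted with limma 3.58.1 in R 4.3.3, and p-values were adjusted over all probe sets tested by the Benjamini-Hochberg method at 0.05. Whether the feed efficiency difference differed by sex was tested on the 4 group means. Members below the filter were read from a fit without it. Marker scores were compared by exact permutation of 1 label within the other (400 arrangements). Correlations used 100000 resamples, or all arrangements for n = 8, and were adjusted over 18 relations.

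The members and the gene lists were chosen with earlier results of these data known. The text names all 10 members, for each the 3 genes with the highest r and the 2 genes of smallest p in each list and comparison. DPP4, SI, EPCAM and KRT8, named as examples of markers, were chosen after their values were seen and not by smallest p. The same holds for the goblet and liver markers that are named. The fits were tested on simulated data of 33405 probe sets, 100 with a log2 change of 1 and 100 with a change of 2. For feed efficiency 58% and 90% of these were called, for sex 70% and 89%, and for the difference between the sexes 5% and 47%. The changed probe sets were drawn at random from all tested, whose median SD over the 12 pigs was 0.32. The SDs of NAGS, CPS1, OTC, OAT and ALDH18A1 were larger, at 0.56 to 0.90, so these rates do not apply to them as they stand. The alternatives were other filters, normalizations, variance models, terms in the model, subsets of pigs and each pig left out. Member correlations without high FE pig 1, or after removing the enterocyte score or group and sex means, were added after seeing the data. The number of arrays limits the precision. Member sequences and promoters were not used here.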

Additional observations from a re-analysis of the deposited data

Results flagged for a closer look

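Among 72 groups of 6 pigs, 7 held a pig whose gap to the nearest other pig relative to the group's range was above Dixon's 95% critical value, where chance flags about 1 in 20 groups. Of the members, OTC in high FE pig 1 had a log2 value of 5.55, against 7.42 for the next lowest high FE pig. ALDH18A1 in low FE pig 4 was at 8.94, against 8.38 for the next highest low FE pig. Beside them, GLUL, the glutamine synthetase, was at 7.38 in low FE pig 2, against 8.69 for the next lowest.

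Marker scores held the other 4. The goblet cell score was -1.17 in high FE pig 1, with -0.18 next in its group, and -0.89 in low FE pig 2, with 0.07 next. That pig also had a T cell score of -0.61, with 0.02 next. The B cell score of low FE pig 4 was -3.42, with -0.23 next, and the same pig had the highest NAGS, OTC, ALDH18A1 and ARG2 values of all 12.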

How the results depend on the processing

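No paired analysis was possible, because each array is of a different pig and the labels name no pairs. The labels give no replicate numbers either, and those used here follow sample order within each group. For feed efficiency 0 of 33405 probe sets were called under every alternative but 2, with 1 in females alone and 1059 at an unadjusted p of 0.05. By sex 11 were called, against 580 at an adjusted p of 0.1, 6332 unadjusted, 7 without a filter, 4 with 50% left out, 7 with a trended and robust variance, 6 with the identifier range as a term, 4 within identifiers 301 to 310, 3 in high FE pigs alone, 3 in low FE pigs alone and 0 over gene means. Leaving out 1 pig gave 5 to 417 by sex, with 417 without low FE pig 1, and 0 to 1 for the difference between the sexes, with 1 without high FE pig 3. Fewer pigs or features entered the subsets and gene means, and the cause of the changes in these counts was not tested. No member was called by feed efficiency or sex under any setting run.

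Signs turned in high minus low for ALDH18A1 (0.07 with the enterocyte score as a term, 0.09 in females), CPS1 (0.01) and CDX2 (0.07) with that term, and CAD (-0.10 in males). In male minus female they turned for CPS1 (0.02 with array weights, 0.02 with the smooth muscle score, 0.18 in low FE pigs), OAT (0.18 in low FE pigs) and NR3C1 (-0.03 over its probe sets). With 1 pig left out, male minus female ran from -0.50 to 0.22 for CPS1 (0.01 without high FE pig 4), -0.48 to 0.10 for OAT, -0.51 to 0.06 for OTC and -0.34 to 0.24 for the enterocyte score (0.01 without low FE pig 4). The difference between the sexes ran from -1.55 to 0.07 for CPS1, -1.12 to 0.17 for OTC and -0.25 to 0.09 for ARG2.

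The r of ALDH18A1 with the enterocyte score was 0.53 and that of NAGS 0.23 without the 2 farthest pigs, and NAGS ran from 0.48 to 0.81 with 1 pig left out. For ARG2 it was 0.05 within identifiers 301 to 310 and -0.23 to 0.44 with 1 pig left out (0.00 and 0.02 without high FE pig 4 or 5). The r of ARG2 with the epithelium score was -0.26 after group and sex means were removed. With smooth muscle it was 0.43 without the 2 farthest pigs and -0.77 to 0.06 with 1 left out. The planned search of promoter words was not run. Dim members, ASS1 and ARG1, lie where signal limits any reading.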
